A study of Mus musculus with 10 samples.

Results

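Of the 47729 genes in the deposited count table of 10 mouse forelimb bud libraries, 38 genes of the G2/M transition and of mitosis are described here. They were chosen by name for their place in the cell cycle, with earlier results of these data known, as were the other gene lists used below. All 38 were found in the table by symbol, and all 38 passed the filter on low counts. The series asks how CXXC1, a protein that binds unmethylated CpG as part of the SET1 histone H3 methyltransferase complexes, bears on BMP signaling and on the differentiation of limb progenitors. Total RNA of forelimb buds at embryonic day 11.5 to 12 was sequenced from 5 knockout and 5 control embryos of 4 litters, named A to D. In all 5 knockouts both Cxxc1 alleles were floxed and Prx1Cre was present, which drives recombination in the mesenchyme of the bud. Control 1 carried Prx1Cre with 1 floxed and 1 wild-type allele. Controls 2 and 4 carried no Cre and 1 floxed allele, control 3 no Cre and 2 floxed alleles, and control 5 is labelled Prx1Cre? with 2 floxed alleles, so its Cre status is uncertain. All 10 embryos thus carried at least 1 floxed allele. Somite stages lay between 49 and 51 in both groups. Prx1Cre does not act in the ectoderm, vessels, blood cells and muscle precursors of the bud, which were part of the sample.

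A cell enters mitosis when cyclin-dependent kinase 1, bound to cyclin A or cyclin B, is switched on by phosphatases of the CDC25 family and escapes its inhibitors. Polo and Aurora kinases then build the spindle, kinetochores attach chromosomes to it, and a checkpoint holds the anaphase-promoting complex back until all are attached. That complex then marks securin and cyclin B for destruction, and the central spindle and an actomyosin ring divide the cell. The transcripts of many of these genes are most abundant in G2 and mitosis. Their level in a tissue follows how many of its cells are cycling as well as how strongly each cell expresses the genes. In a bulk sample, fewer cells in G2 and mitosis and less RNA per cell cannot be told apart. The limb bud of this stage is a rapidly growing tissue, in which mesenchymal progenitors divide while others leave the cycle to form cartilage.

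Levels are given as CPM, counts relative to the TMM-scaled library total, which do not correct for gene length. Changes are log2 fold changes of knockout over control from edgeR's quasi-likelihood test, with a standard error (SE) and a p-value with Benjamini-Hochberg adjustment across all 20562 tested genes (edgeR adjusted p), and a gene is called at a value below 0.05. In every list of 5 levels, the libraries run from replicate 1 to replicate 5 of the group. Library totals ran from 33274911 to 49880815 counts. The lowest count of any member in any library was 1550, so a count of 0 played no part. Cxxc1 itself held 75.2 ± 1.23 CPM in knockouts and 96.7 ± 6.88 CPM in controls (SD, n = 5 each; log2 fold change -0.36, SE 0.049, edgeR adjusted p = 0.000144), with no overlap between the groups. This count spans the whole gene and does not single out a deleted part. The 8 listed markers of limb bud mesenchyme were all present, and summed to between 1060 and 1200 CPM in knockouts and between 1940 and 2090 CPM in controls. Of the 8, 5 were called lower and 0 higher. The 3 not called were Twist1, Lhx2 and Msx1, with log2 fold changes of -0.16, -0.27 and 0.27. The labels name no pooling and assign the 10 libraries to the 4 litters. Each p-value sets the difference between groups against the spread between libraries within a group, with litter not in the model.

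The G2/M and mitosis genes were modestly lower in knockout buds. Of the 38 genes, 21 were called lower and 0 higher by edgeR's quasi-likelihood test, and 17 did not pass. Without adjustment, at p below 0.05, 0 of the genes with a positive fold change passed. DESeq2, and limma on the normalized table, also called 0 of them higher. Over all genes tested, 17.1% were called lower and 18.1% higher (35.2% together), and among the 4734 genes within the members' range of mean level, 26.6% were called lower and 18.8% higher. When libraries were scaled by their size only, 19 of the 38 genes were called lower and 2 higher, and the share of higher calls among all called genes was 62.2%, against 51.3% with TMM. Fold changes of the 38 genes ran from -0.56 for Nusap1 to 0.13 for Cdc20, with a median of -0.20, where the median over all genes tested was -0.001. In 19 genes the 5 knockouts all lay below the lowest control, a pattern found in 12.4% of all genes tested, and in 0 genes did all 5 lie above the highest control. Within all 4 litters, 26 genes (68.4%) were lower in knockouts, against 23.4% of all genes tested.

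**Figure D1:**
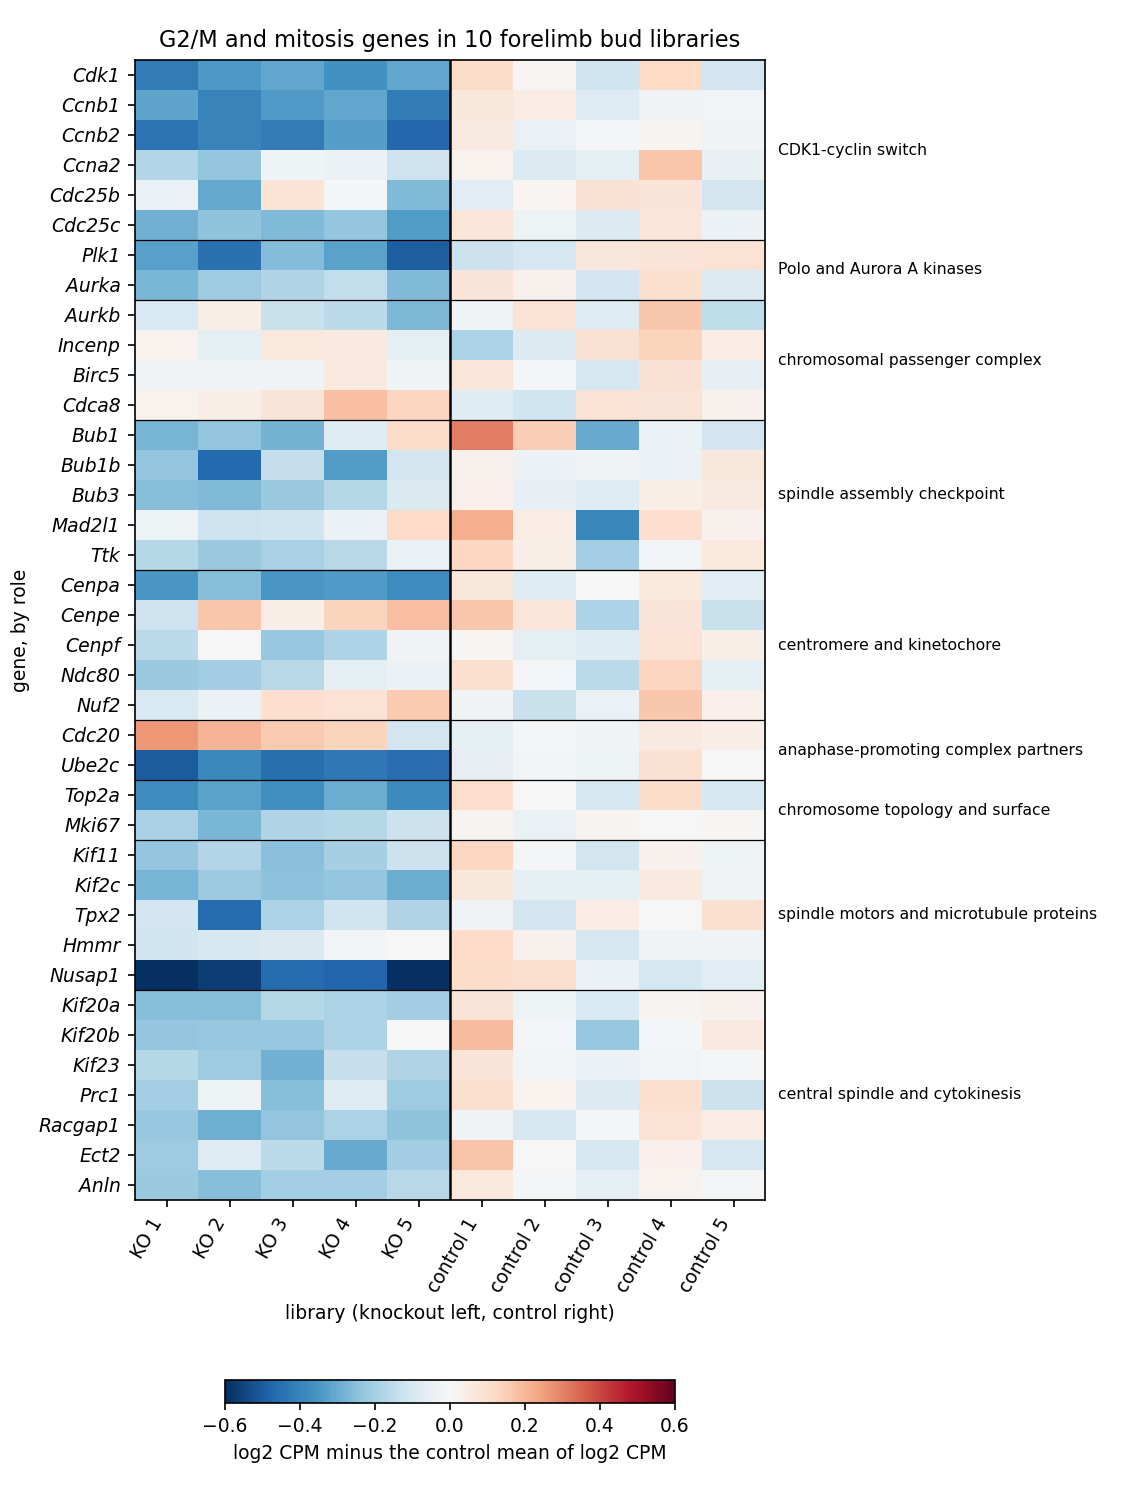
Level of each of the 38 genes (rows, grouped by role) in each library (columns, knockout left and control right), as log2 CPM minus the mean of log2 CPM over the 5 controls, with blue lower and red higher. Nusap1, Ube2c, Ccnb2 and Plk1 are blue in all 5 knockout libraries, while the chromosomal passenger genes Incenp, Birc5 and Cdca8 show no such block.

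The shift was seen in all 5 knockout libraries. Relative to the control mean, the median of the 38 genes on the log2 scale was -0.22, -0.23, -0.20, -0.17 and -0.17 in the knockout libraries, and 0.07, -0.01, -0.07, 0.07 and -0.02 in the control libraries. The groups did not overlap on this measure. Their summed level was 6590, 6581, 6694, 6835 and 6784 CPM in knockouts, against 8013, 7598, 7393, 7995 and 7588 CPM in controls. Within litters, the median difference of knockout minus control was -0.25 in litter A, -0.13 in litter B, -0.21 in litter C and -0.15 in litter D. Of the 38 genes, 34, 29, 34 and 30 were lower in the knockout of these litters. Knockout 3 and control 3, the pair of litter B, gave the fewest, and control 3 had the lowest median of the controls. Litter A holds 2 of the 5 libraries of each group. Without it, 3 against 3, 13 of the 38 genes were called lower, beside 9.83% of all genes in that fit.

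Markers of other cell types moved between the same groups. All 12 macrophage markers rose, with a summed level of 222 to 259 CPM in knockouts and 60.5 to 73.6 CPM in controls. Of 10 erythroid markers 9 rose (2950 to 6040 CPM in knockouts and 2420 to 2830 CPM in controls), as did 8 of 9 endothelial markers (331 to 385 and 266 to 309 CPM), 7 of 11 ectodermal markers (595 to 709 and 326 to 535 CPM) and 5 of 8 muscle precursor markers (147 to 266 and 142 to 175 CPM). Of 9 cartilage markers 8 fell, to a summed 182 to 224 CPM in knockouts against 621 to 1130 CPM in controls. None of these lists had a marker at 0. Their part in the levels of the mitotic genes was not tested.

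Promoters of called genes are shown because promoters of this class are known for 2 short elements. Whether these elements bear on the levels measured here was not tested. The cell cycle genes homology region (CHR), written TTTGAA or TTCGAA, is bound by the DREAM and MYB-MuvB complexes, and the CCAAT box is bound by NF-Y. RefSeq promoter entries (GRCm38.p6) were found for 32 of the 38 genes, and the 250 bases upstream of each start were searched on both strands. No entry was found for Aurkb, Ccna2, Cdc25c, Incenp, Kif20a and Tpx2. Of the 6 called genes with the smallest adjusted p that hold CHR letters, 5 are shown, given 5′ to 3′ on the strand of the gene and ending before the RefSeq start, or before the first exon in GENCODE M21 where that reaches farther out. Kif2c is left out, because its RefSeq start lies 3867 bases inside the GENCODE gene. For Ube2c, Cdk1 and Mki67 the stretch begins 150 bases before the RefSeq start, and for Ccnb2 and Top2a it begins at 250 bases. Capitals mark CHR and CCAAT letters on either strand.
Ube2c (chr2:164769779-164769897, plus strand): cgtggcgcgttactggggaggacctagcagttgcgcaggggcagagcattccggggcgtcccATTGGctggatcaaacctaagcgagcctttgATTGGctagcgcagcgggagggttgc
Ccnb2 (chr9:70421555-70421804, minus strand): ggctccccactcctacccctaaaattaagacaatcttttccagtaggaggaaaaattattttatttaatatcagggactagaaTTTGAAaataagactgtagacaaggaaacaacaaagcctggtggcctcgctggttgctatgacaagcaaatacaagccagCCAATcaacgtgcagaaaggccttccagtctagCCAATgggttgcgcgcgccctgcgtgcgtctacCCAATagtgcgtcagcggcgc
Top2a (chr11:99024190-99024439, minus strand): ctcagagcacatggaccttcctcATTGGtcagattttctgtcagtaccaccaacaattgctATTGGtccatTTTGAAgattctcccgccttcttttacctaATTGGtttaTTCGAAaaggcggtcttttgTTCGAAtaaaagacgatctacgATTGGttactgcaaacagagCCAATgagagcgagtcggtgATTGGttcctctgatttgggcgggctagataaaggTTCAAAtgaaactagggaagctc
Cdk1 (chr10:69352939-69353062, minus strand): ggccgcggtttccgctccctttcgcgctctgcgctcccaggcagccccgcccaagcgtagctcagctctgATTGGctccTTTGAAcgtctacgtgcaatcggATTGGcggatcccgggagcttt
Mki67 (chr7:135716380-135716529, minus strand): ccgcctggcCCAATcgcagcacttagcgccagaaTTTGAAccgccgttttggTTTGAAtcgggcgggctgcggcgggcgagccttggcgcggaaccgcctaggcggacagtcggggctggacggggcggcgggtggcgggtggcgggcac
Positions count from the RefSeq start, which lies 31 bases inside the GENCODE first exon of Ube2c and 26 bases inside that of Cdk1. Ube2c holds 6 CCAAT matches in the 250 bases, of which those in the printed stretch lie 88 to 84 and 57 to 53 bases upstream, and its CHR letters, at 29 to 24 bases, fall within the GENCODE exon and are not printed. Cdk1 holds 3 CCAAT matches, in the printed stretch at 80 to 76 and 48 to 44 bases upstream, and CHR letters 71 to 66 bases upstream, and a further CHR match at 15 to 10 bases falls within the exon. Top2a holds 4 CHR and 6 CCAAT matches, the nearest of each 23 to 18 and 58 to 54 bases upstream. In Ccnb2 the 3 CCAAT matches lie 87 to 83, 54 to 50 and 21 to 17 bases upstream and the CHR letters lie farther out, at 167 to 162 bases. Mki67 has CHR letters at 116 to 111 and 98 to 93 bases and 3 CCAAT matches, the nearest at 141 to 137 bases.

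Over the 32 genes with an entry, 12 (37.5%) held CHR letters and 24 (75%) held CCAAT, against 19.6% and 37.5% of all 27025 genes with a promoter entry. Among the 12885 of those that were tested for expression, the shares were 15.1% and 39.5%. CHR letters stood in 10 of 18 genes called lower and in 2 of 14 not called. Within 100 bases of the start they stood in 6 of 18 called and in 2 of 14 not called. That shorter window held them in 7.18% of all genes with a promoter entry and in 4.81% of those tested. CCAAT stood in 15 of 18 called and in 9 of 14 not called, and these differences were not tested. The whole searched window lay inside the GENCODE gene for Kif2c, Cdca8 and 1 of the 2 entries of Bub3. Of the 50 bases after the RefSeq start, only the later part was compared with GENCODE transcripts. It had no full match for Aurka, Kif2c and Mad2l1. In 0 of the members' windows did a CHR match overlap a CCAAT match. Nusap1, Ccnb1 and Cenpa, which fell among the most, have no CHR letters in this window, and Cdc20, which was not called, has them 18 to 13 bases upstream. The RefSeq start lies 84 bases inside the GENCODE gene for Ccnb1 and 109 bases inside it for Cenpa. Bases after the start were not searched. A match is a run of letters and not a measured site.

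The kinase switch that starts mitosis fell in 4 of its 6 genes (66.7%). Of all genes tested 17.1% were called lower, and 26.6% of those within the members' range of mean level. The counts by role below stand beside the same shares. Cdk1, the kinase itself (chromosome 10, 69335146 to 69352938, minus strand, GRCm38), held 155, 163, 167, 161 and 168 CPM in knockouts, against 224, 208, 191, 226 and 192 CPM in controls. Every knockout library was below the lowest control, and Cdk1 fell by 21.8% (log2 fold change -0.35, SE 0.055, edgeR adjusted p = 0.000356). Ccnb1, the main mitotic cyclin B (chromosome 13, 100778650 to 100786570, minus strand), held 196, 184, 193, 196 and 182 CPM in knockouts, against 255, 251, 231, 239.5 and 241 CPM in controls. Its groups were also separate (log2 fold change -0.36, SE 0.041, edgeR adjusted p = 4.24e-05). In the annotated transcripts of Ccnb1, 22.9% of 31-base words also occur in the pseudogene Ccnb1-ps, so part of its estimated count rests on how reads were divided. Ccnb2, the other cyclin B of somatic cells (chromosome 9, 70407692 to 70421547, minus strand), held 85.8, 88.3, 87.0, 92.8 and 84.0 CPM in knockouts, against 121, 113, 116, 118 and 115 CPM in controls. The 2 groups were tight and well apart, with coefficients of variation of 3.81% and 2.47%, and Ccnb2 fell by 24.9% (log2 fold change -0.41, SE 0.038, edgeR adjusted p = 7.7e-06). It was lower in the knockouts of all 4 litters, with differences from -0.45 to -0.34 on the log2 scale.

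Cdc25c, a phosphatase that activates CDK1, held 45.9, 47.4, 46.8, 47.7 and 44.5 CPM in knockouts, against 59.0, 54.9, 53, 59.1 and 54.8 CPM in controls. No knockout library reached the lowest control (log2 fold change -0.27, SE 0.047, edgeR adjusted p = 0.000727), and the gene Gm3550 on the other strand covers 12.7% of its exon bases. Its relative Cdc25b, which acts earlier at the centrosome, was not called, with 44.1 to 57.8 CPM in knockouts and 50.6 to 58.3 CPM in controls (log2 fold change -0.10, SE 0.078, edgeR adjusted p = 0.345). Ccna2, the cyclin A of S phase and G2, was not called either, at 206 to 238 CPM in knockouts and 228 to 272 CPM in controls (log2 fold change -0.12, SE 0.058, edgeR adjusted p = 0.137). Here the groups overlapped, and Exosc9 on the other strand shares 12.5% of the exon bases.

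Plk1 and Aurka, the kinases that mature the centrosomes and build the spindle poles, both fell. Plk1 (chromosome 7, 122159439 to 122169873, plus strand) held 100.3, 92.1, 105, 100.4 and 89.1 CPM in knockouts, against 115, 117, 132, 133 and 133 CPM in controls (log2 fold change -0.37, SE 0.06, edgeR adjusted p = 0.000505). All knockouts lay below all controls, and the difference within litters ran from -0.58 in litter D to -0.27 in litter A. The pseudogene Plk-ps1 shares 14.8% of the 31-base words of Plk1, and itself held a mean of 1.67 CPM in knockouts and 1.29 CPM in controls. Aurka held 92.2, 96.2, 98.5, 101 and 92.7 CPM in knockouts, against 118, 114, 103, 119 and 105 CPM in controls (log2 fold change -0.22, SE 0.05, edgeR adjusted p = 0.00489). The gap was narrow, since knockout 4 lay just under control 3, and the call was lost without litter A (log2 fold change -0.17, edgeR adjusted p = 0.144).

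**Figure D2:**
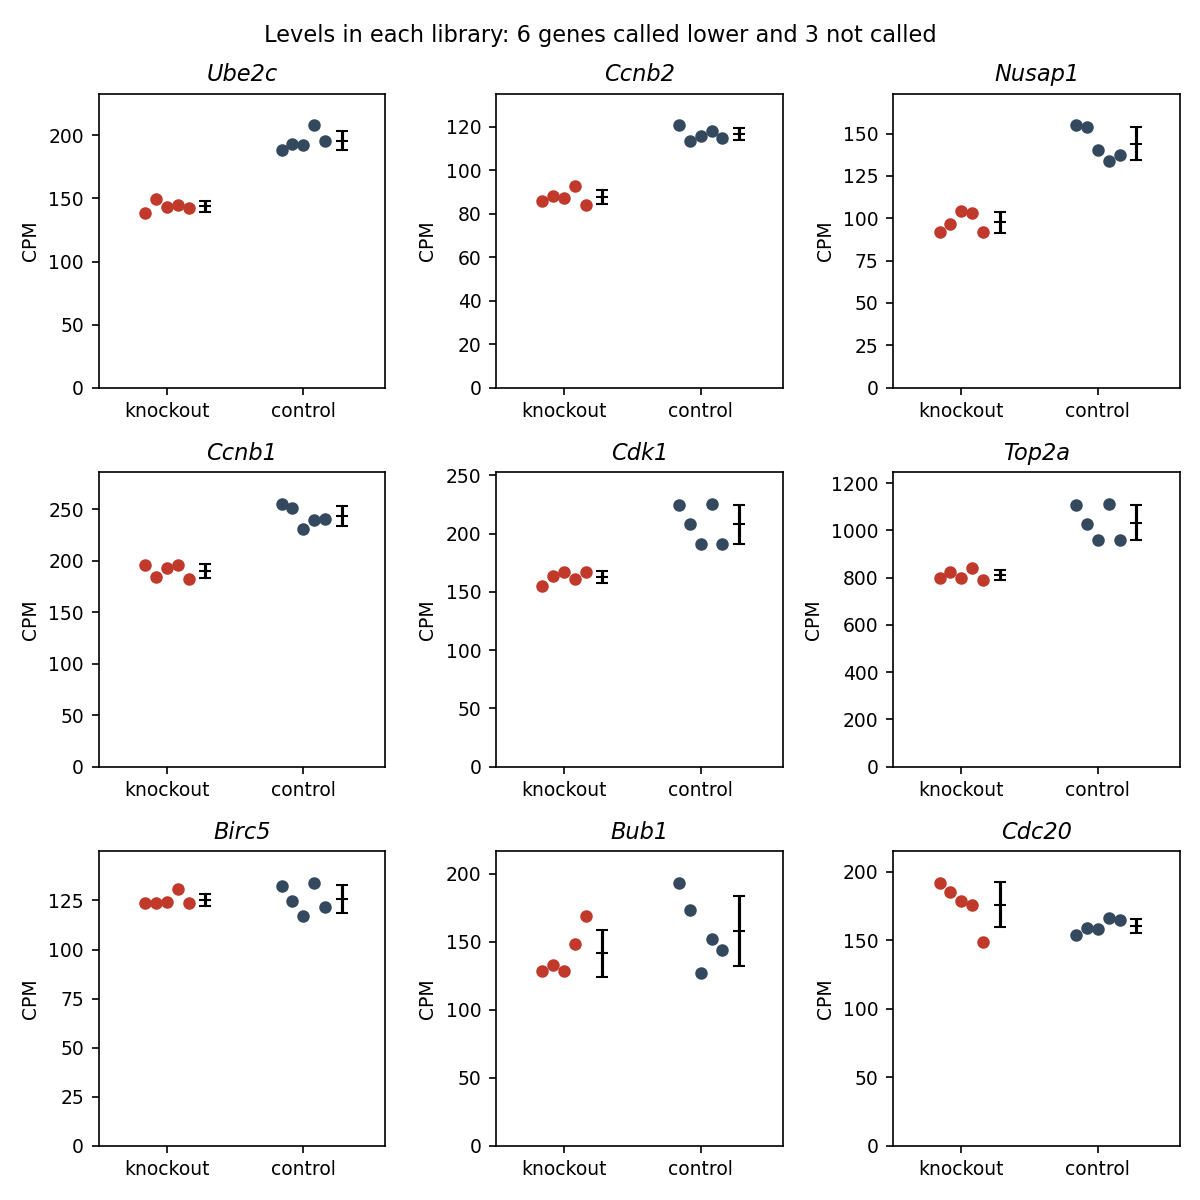
CPM of 9 genes in each library, knockout left and control right, with points in the order of replicates 1 to 5 and the mean and SD (n = 5) beside them. Ube2c, Ccnb2, Nusap1, Ccnb1, Cdk1 and Top2a lie lower in all 5 knockouts than in any control, while the groups overlap for Birc5, Bub1 and Cdc20.

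In the chromosomal passenger complex, 0 of the 4 genes were called. This complex carries the kinase Aurora B from the inner centromere to the central spindle, and its genes are Aurkb, the scaffold Incenp, survivin (Birc5) and borealin (Cdca8). Birc5 held 124, 124, 124, 131 and 124 CPM in knockouts, against 132, 125, 117, 134 and 122 CPM in controls. The knockout values outside knockout 4 lay between 123.7 and 124 CPM, and all 5 were inside the control range (log2 fold change -0.01, SE 0.044, edgeR adjusted p = 0.921). Incenp held 189, 178, 194, 194 and 179 CPM in knockouts, against 163, 176, 198, 204 and 192 CPM in controls, with complete overlap (log2 fold change 0.00, SE 0.061, edgeR adjusted p = 0.982). Cdca8 was at 113 to 126 CPM in knockouts and 102 to 118 CPM in controls (log2 fold change 0.09, SE 0.051, edgeR adjusted p = 0.21). Aurkb was at 78.2 to 96.5 CPM in knockouts and 84.9 to 105 CPM in controls (log2 fold change -0.12, SE 0.068, edgeR adjusted p = 0.185). With libraries scaled by size only, Cdca8 was called higher (log2 fold change 0.14, edgeR adjusted p = 0.0471). Misses of the threshold do not show that these genes were equal between groups, and whether the passenger genes differ from the other mitotic genes was not tested.

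In the spindle assembly checkpoint 2 of 5 genes fell (40%), against 17.1% of all genes tested and 26.6% within the members' range of mean level. Bub1b, which encodes the checkpoint kinase-like protein BUBR1, held 208, 178, 223, 195 and 228 CPM in knockouts, against 250.3, 239.9, 242, 240.3 and 257 CPM in controls (log2 fold change -0.25, SE 0.063, edgeR adjusted p = 0.00767). The knockouts were the more spread, with a coefficient of variation of 9.84% against 3.11% in controls, yet none reached a control. Its call was lost without litter A (log2 fold change -0.20, edgeR adjusted p = 0.0888) and against the 3 controls labelled without Cre (-0.22, edgeR adjusted p = 0.0561). Bub3, the partner that brings BUB1 and BUBR1 to kinetochores, held 163, 162, 167, 173 and 183 CPM in knockouts, against 198, 188, 185, 200.3 and 202 CPM in controls (log2 fold change -0.20, SE 0.046, edgeR adjusted p = 0.00476). The lowest control stood 1.3 CPM above the highest knockout, and without litter A it was not called (-0.17, edgeR adjusted p = 0.0939).

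The kinase gene Bub1 was the most variable of the 38 in controls, with a coefficient of variation of 16.4%. It held 129, 133, 128, 148 and 169 CPM in knockouts, against 193, 173, 127, 152 and 144 CPM in controls, and was not called (log2 fold change -0.16, SE 0.11, edgeR adjusted p = 0.3). Control 1 was the highest library and control 3 the lowest, and the litters differed in sign, from -0.48 in litter A to 0.23 in litter D. Mad2l1, whose protein blocks CDC20, followed the same controls, with 131, 123, 123, 130.5 and 145 CPM in knockouts, against 156, 138, 102, 144 and 136 CPM in controls (log2 fold change -0.05, SE 0.094, edgeR adjusted p = 0.733). Ttk, the MPS1 kinase that starts the checkpoint, held 65.4 to 74.2 CPM in knockouts and 66.3 to 83.0 CPM in controls (log2 fold change -0.16, SE 0.061, edgeR adjusted p = 0.0592). Ttk passed with litter as a replicate block (log2 fold change -0.16, edgeR adjusted p = 0.0439), without control 3 (-0.21, edgeR adjusted p = 0.00745), without knockout 5 (-0.19, edgeR adjusted p = 0.0359) and without litter B (-0.20, edgeR adjusted p = 0.0226).

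At the centromere and kinetochore, Cenpa fell and the other 4 genes were not called. The share that fell, 20%, was near that of all genes tested (17.1%). Cenpa, the histone H3 variant that marks centromeres (chromosome 5, 30666777 to 30674830, plus strand), held 160.1, 171, 159.8, 161 and 157 CPM in knockouts, against 214, 194, 204, 213 and 195 CPM in controls. The highest knockout was well below the lowest control, and Cenpa fell by 20.7% (log2 fold change -0.34, SE 0.043, edgeR adjusted p = 8.58e-05). Cenpe, a kinesin that moves chromosomes to the spindle equator, was at 213 to 263 CPM in knockouts and 204 to 261 CPM in controls (log2 fold change 0.08, SE 0.077, edgeR adjusted p = 0.476). Cenpf, a large coiled-coil protein of G2 nuclei and kinetochores, was at 205 to 240.3 CPM in knockouts and 229 to 255 CPM in controls (log2 fold change -0.12, SE 0.054, edgeR adjusted p = 0.119). Ndc80 and Nuf2 encode partners in the complex that grips microtubules. Ndc80 was at 55.2 to 62.8 CPM in knockouts and 57.6 to 70.4 CPM in controls (log2 fold change -0.14, SE 0.063, edgeR adjusted p = 0.111), and passed without control 3 (-0.18, edgeR adjusted p = 0.0395). Nuf2 was at 80.6 to 95.6 CPM in knockouts and 78.1 to 96.1 CPM in controls (log2 fold change 0.04, SE 0.063, edgeR adjusted p = 0.646). With somite stage as a term, Cenpf passed (-0.13, edgeR adjusted p = 0.0491).

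The 2 partners of the anaphase-promoting complex had fold changes of opposite sign, of which that of Ube2c passed the test. Ube2c, its ubiquitin-conjugating enzyme (chromosome 2, 164769898 to 164778822, plus strand), held 138, 149.5, 143, 145 and 142 CPM in knockouts, against 189, 193, 192, 208 and 196 CPM in controls. Both groups were tight, the lowest control stood 39.2 CPM above the highest knockout, and Ube2c fell by 26.6% (log2 fold change -0.45, SE 0.039, edgeR adjusted p = 4.74e-06), with the smallest adjusted p of the 38. Within litters the difference ran from -0.52 in litter C to -0.41 in litter A on the log2 scale. Tnnc2 on the other strand covers 22.8% of its exon bases, and held a mean of 1.73 CPM in knockouts and 3.68 CPM in controls. Cdc20, the activator of the complex, held 192, 185, 179, 176 and 149 CPM in knockouts, against 154, 159, 158, 166 and 165 CPM in controls. Knockouts 1 to 4 lay above all controls and knockout 5 lay below them all, and the gene was not called (log2 fold change 0.13, SE 0.061, edgeR adjusted p = 0.115). Without knockout 5, Cdc20 was called higher (log2 fold change 0.19, edgeR adjusted p = 0.00552), as it was without litter D (0.20, edgeR adjusted p = 0.00762) and when libraries were scaled by size only (0.19, edgeR adjusted p = 0.0452). In its annotated transcripts, 23.4% of 31-base words also occur in those of Gm7856.

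Top2a and Mki67 had the highest CPM of the 38 genes, and both fell. Top2a, the topoisomerase that untangles sister chromatids (chromosome 11, 98992943 to 99024189, minus strand), held 797, 825, 799, 840.2 and 790.3 CPM in knockouts, against 1108, 1029, 961, 1112 and 958 CPM in controls. The controls were the more spread, and the groups were separate (log2 fold change -0.35, SE 0.053, edgeR adjusted p = 0.000293). Mki67, which encodes the Ki-67 protein that coats mitotic chromosomes and is the usual marker of cycling cells (chromosome 7, 135689784 to 135716361, minus strand), held 879.9, 835, 890.3, 895 and 922 CPM in knockouts, against 1021, 980.3, 1021, 1006 and 1014 CPM in controls. Mki67 fell by 12.3% and Top2a by 21.6%, and in both the groups did not overlap (Mki67 log2 fold change -0.19, SE 0.04, edgeR adjusted p = 0.00274). The call of Mki67 was lost without litter A (log2 fold change -0.17, edgeR adjusted p = 0.0524). Per kilobase of exon, the level of Cdc20 was the highest in knockouts, at 94.3 CPM, with Top2a at 89.9 and Mki67 at 87.9 CPM per kilobase. Controls held 85.9 CPM per kilobase of Cdc20, 115 of Top2a and 100 of Mki67.

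Among spindle motors and microtubule proteins 4 of 5 genes fell (80%, against 17.1% of all genes tested). Nusap1, which bundles microtubules near chromosomes (chromosome 2, 119618298 to 119651244, plus strand), had the largest fold change of the 38. It held 91.8, 96.8, 104, 103 and 91.8 CPM in knockouts, against 155, 154, 141, 134 and 137 CPM in controls, and fell by 32.3% (log2 fold change -0.56, SE 0.057, edgeR adjusted p = 1.49e-05). Its lowest control stood 29.4 CPM above its highest knockout, and the difference within litters ran from -0.71 in litter A to -0.37 in litter C on the log2 scale. Kif2c, a kinesin that takes microtubules apart at the centromere, held 123, 128, 126, 127 and 122 CPM in knockouts, against 156, 144, 144, 156 and 147 CPM in controls (log2 fold change -0.25, SE 0.039, edgeR adjusted p = 0.00032). Its knockouts had the smallest coefficient of variation of the 38 genes in knockouts, 2.22%. Kif11, the motor that pushes spindle poles apart, was at 239 to 260 CPM in knockouts and 264 to 310.1 CPM in controls (log2 fold change -0.20, SE 0.047, edgeR adjusted p = 0.00586). Its groups did not overlap, but it was not called without litter A (-0.16, edgeR adjusted p = 0.108).

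Tpx2, the activator of Aurora A, held 285, 224, 271, 284 and 272 CPM in knockouts, against 304, 285, 318, 308 and 330 CPM in controls (log2 fold change -0.21, SE 0.067, edgeR adjusted p = 0.028). Knockout 2 was the lowest library, and knockout 1 reached the lowest control. Its call was lost in 9 of the 24 alternatives, the most of the 21, among them without control 3 (-0.20, edgeR adjusted p = 0.0577), without control 5 (-0.19, edgeR adjusted p = 0.073) and without knockout 3 (-0.21, edgeR adjusted p = 0.0549). It was also lost with libraries scaled by size only (-0.16, edgeR adjusted p = 0.0611), against the controls labelled without Cre (-0.19, edgeR adjusted p = 0.119), without litter B (-0.20, edgeR adjusted p = 0.0961), C (-0.23, edgeR adjusted p = 0.0531) or D (-0.19, edgeR adjusted p = 0.0853), and without control 1 and knockout 3 together, the libraries with high Xist (-0.22, edgeR adjusted p = 0.0677). Hmmr, a spindle protein that binds hyaluronan outside the cell, was not called, at 89.5 to 97.3 CPM in knockouts and 90.8 to 105 CPM in controls (log2 fold change -0.06, SE 0.046, edgeR adjusted p = 0.314).

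**Figure D3:**
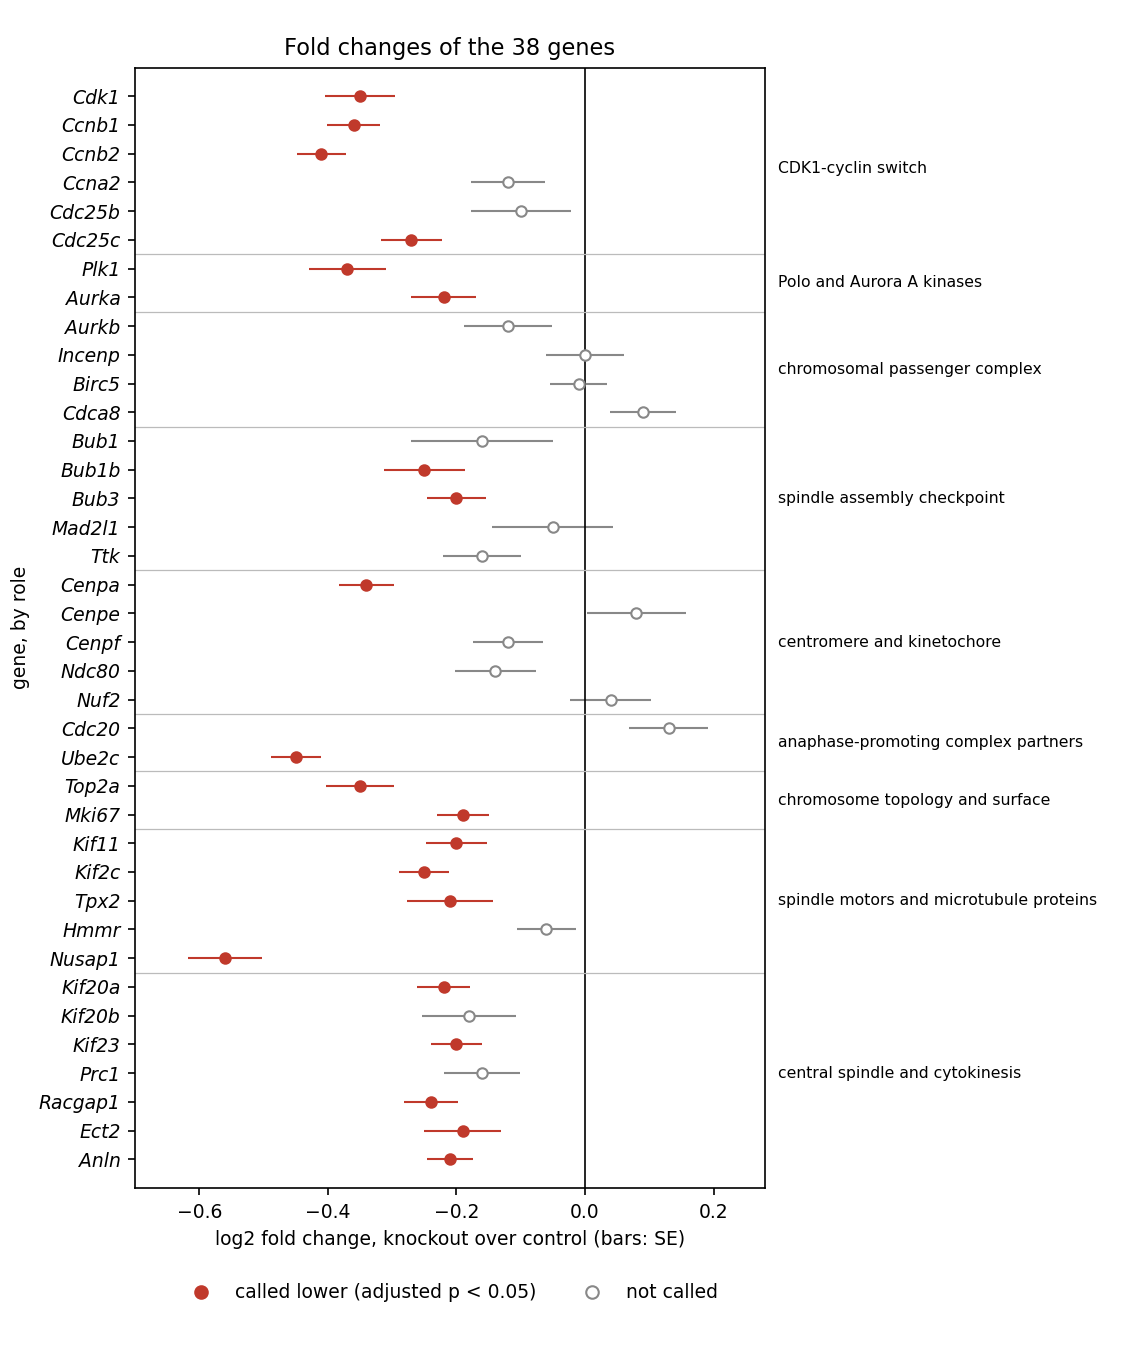
Log2 fold change of knockout over control for each of the 38 genes, grouped by role, with bars for the SE. Filled points are called lower at an edgeR adjusted p below 0.05, and open points are not called. Nusap1 lies farthest to the left at -0.56, and the 4 chromosomal passenger genes are all open, between -0.12 and 0.09.

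Genes of the central spindle and cytokinesis fell in 5 of 7 cases (71.4%, against 17.1% of all genes tested), with fold changes between -0.24 and -0.19. Racgap1, the GTPase-activating subunit of centralspindlin, held 144, 138, 143, 148 and 143 CPM in knockouts, against 166, 157, 168, 179 and 174 CPM in controls (log2 fold change -0.24, SE 0.042, edgeR adjusted p = 0.000887). Kif23, its kinesin partner, held 94.8 to 105 CPM in knockouts and 113 to 122 CPM in controls (log2 fold change -0.20, SE 0.04, edgeR adjusted p = 0.00218). In these and in Anln and Kif20a, no knockout reached a control. Anln, the anillin scaffold of the contractile ring, held 99.7, 97.4, 101, 101 and 104 CPM in knockouts, against 121, 115, 111, 118 and 115 CPM in controls (log2 fold change -0.21, SE 0.036, edgeR adjusted p = 0.000769). Kif20a, the kinesin that brings the passenger complex to the central spindle, held 212 to 225 CPM in knockouts and 238 to 267 CPM in controls (log2 fold change -0.22, SE 0.041, edgeR adjusted p = 0.00141). Cdc23 on the other strand shares 29.3% of the exon bases of Kif20a, and held a mean of 182 CPM in knockouts and 189.9 CPM in controls. Kif23 (-0.18, edgeR adjusted p = 0.0572) and Kif20a (-0.18, edgeR adjusted p = 0.059) were not called without litter A.

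Ect2, the exchange factor that turns on RhoA at the cell equator, held 81.7, 89.7, 84.9, 76.5 and 81.7 CPM in knockouts, against 107, 94.5, 88.3, 96.5 and 88.0 CPM in controls (log2 fold change -0.19, SE 0.06, edgeR adjusted p = 0.0255). Knockout 2 stood above controls 3 and 5, and the call was lost in 8 of the 24 alternatives, among them without control 1 (-0.15, edgeR adjusted p = 0.0559), knockout 1 (-0.19, edgeR adjusted p = 0.0527) or knockout 4 (-0.17, edgeR adjusted p = 0.0668). The others were libraries scaled by size only (-0.14, edgeR adjusted p = 0.125), the controls labelled without Cre (-0.17, edgeR adjusted p = 0.0565), and the fits without litter A (-0.17, edgeR adjusted p = 0.112), litter C (-0.16, edgeR adjusted p = 0.108) or the libraries with high Xist (-0.16, edgeR adjusted p = 0.0764). Prc1, which crosslinks the midzone microtubules, was not called, at 148 to 173 CPM in knockouts and 162 to 189 CPM in controls (log2 fold change -0.16, SE 0.059, edgeR adjusted p = 0.0587). With litter or replicate number as a replicate block it passed (-0.16 in both, edgeR adjusted p = 0.0218 and 0.0342), as it did without control 3 (-0.18, edgeR adjusted p = 0.0469), control 5 (-0.19, edgeR adjusted p = 0.0249) or knockout 2 (-0.19, edgeR adjusted p = 0.0336). Rccd1 on the other strand shares 11.1% of its exon bases. Kif20b, a kinesin of late cytokinesis, was at 77.2 to 90.8 CPM in knockouts and 77.5 to 103 CPM in controls (log2 fold change -0.18, SE 0.073, edgeR adjusted p = 0.0794), and passed without control 3 (-0.23, edgeR adjusted p = 0.015), knockout 5 (-0.22, edgeR adjusted p = 0.0294) or litter B (-0.22, edgeR adjusted p = 0.039).

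Among 131 other genes of the same pathway, 40 were called lower (30.5%) and 12 higher (9.16%), with a median log2 fold change of -0.08. Over all genes tested, the shares were 17.1% lower and 18.1% higher. Within the range of mean level of the 38 genes they were 26.6% and 18.8%. Of 34 further centromere and kinetochore genes, 11 fell (32.4%) and 0 rose. Zwint, which helps hold the checkpoint at kinetochores, was at 151 ± 1.67 CPM in knockouts and 202 ± 7.72 CPM in controls (SD, n = 5 each), and Ska2, of the complex that keeps kinetochores on microtubules, was at 98.1 ± 6.33 CPM in knockouts and 141 ± 14.9 CPM in controls. Hjurp, the chaperone that loads CENP-A, fell too (log2 fold change -0.26, SE 0.053, edgeR adjusted p = 0.00217), as had Cenpa. Of 22 condensin, cohesin and separase genes, 7 fell (31.8%) and 1 rose (4.55%). Securin (Pttg1), the inhibitor of separase, was at 15.5 ± 0.358 CPM in knockouts and 19.7 ± 1.01 CPM in controls, and the condensin subunit Ncaph was at 153 ± 9.23 CPM in knockouts and 128 ± 4.36 CPM in controls. Of 17 subunits and inhibitors of the anaphase-promoting complex, 4 fell (23.5%) and 2 rose (11.8%). The small subunit Cdc26 was among those that fell (61.5 ± 3.14 CPM in knockouts and 88.4 ± 4.06 CPM in controls).

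The 34 other spindle and cytokinesis genes split into 12 that fell (35.3%), 8 that rose (23.5%) and 14 that were not called. Of all genes tested, 17.1% fell and 18.1% rose, and within the members' range of mean level 26.6% fell and 18.8% rose. The largest rises were in Gtse1, Psrc1 and Ckap2, which encode microtubule-binding proteins. Gtse1 was at 141 ± 8.49 CPM in knockouts and 53.2 ± 4.48 CPM in controls (SD, n = 5 each; log2 fold change 1.41, SE 0.064, edgeR adjusted p = 2.02e-08). Psrc1 was at 140 ± 10.1 CPM in knockouts and 81.5 ± 2.25 CPM in controls, and Ckap2 at 108 ± 3.49 CPM in knockouts and 66.3 ± 3.53 CPM in controls. Kifc1, a motor that focuses spindle poles, was at 117 ± 8.26 CPM in knockouts and 87.4 ± 2.58 CPM in controls. In these 4 genes all knockouts lay above the highest control. Over the whole list this held for 8 genes, and in 9 genes all knockouts lay below the lowest control. Among the 20562 genes tested, 2666 lay wholly above and 2545 wholly below.

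Upstream of mitotic entry, 6 of 24 genes fell (25%) and 1 rose (4.17%), against 17.1% and 18.1% of all genes tested. Within the members' range of mean level 26.6% fell and 18.8% rose, so the share that fell here was near that of genes at similar levels. Rbl1, the pocket protein p107 of the DREAM complex, was at 46.5 ± 1.45 CPM in knockouts and 58.8 ± 3.11 CPM in controls. E2f4, its transcription factor partner, was at 92 ± 4.32 CPM in knockouts and 73.9 ± 6.66 CPM in controls. The phosphatase Cdc25a fell by 0.30 on the log2 scale (SE 0.065, edgeR adjusted p = 0.00333), and Cks2, a small subunit of CDK1, fell by 0.29 (SE 0.068, edgeR adjusted p = 0.006). Of 12 p53 targets that act on the G2/M step, 7 rose (58.3%), 2 fell (16.7%) and 3 were not called. Ccng1, cyclin G1, was at 433 ± 22.4 CPM in knockouts and 39.1 ± 4.77 CPM in controls. Cdkn1a, the inhibitor of cyclin-dependent kinases known as p21, was at 224 ± 16.6 CPM in knockouts and 16.8 ± 2.79 CPM in controls. Of 25 genes of G1/S and DNA replication, 5 fell (20%), 1 rose (4%) and 19 were not called, with a median log2 fold change of -0.06. The share of this list that fell was near that of all genes tested (17.1%). Rrm1, a subunit of ribonucleotide reductase, was at 361 ± 15.1 CPM in knockouts and 442 ± 19.5 CPM in controls. The median of this list, relative to the control mean, was between -0.13 and -0.02 in knockout libraries and between -0.09 and 0.07 in control libraries, so these ranges overlapped. A difference between the lists was not tested.

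**Figure D4:**
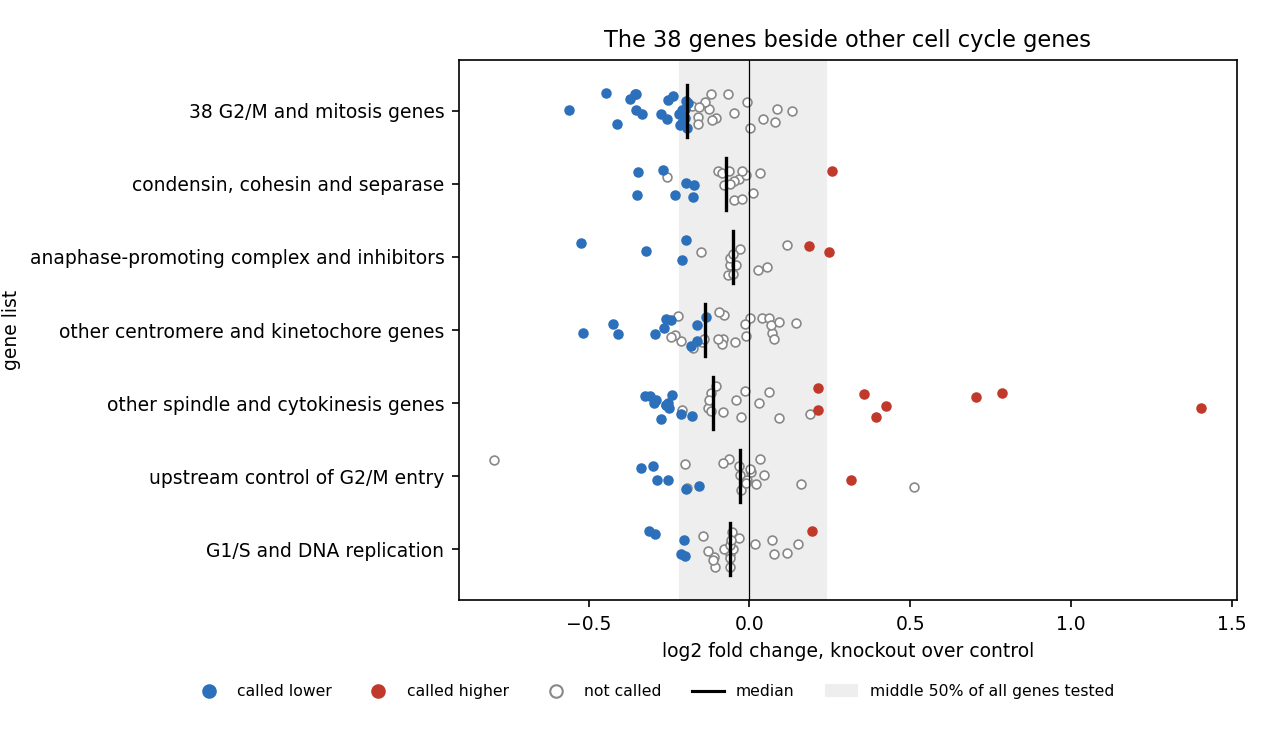
Log2 fold change of knockout over control for each gene of the 38 G2/M and mitosis genes, of 5 other lists of the same pathway and of the G1/S and DNA replication genes, with a black bar at each list's median. The grey band spans the middle 50% of all genes tested, from -0.22 to 0.24. The 38 genes have a median of -0.20 and no gene called higher, while the other spindle and cytokinesis genes reach 1.41 for Gtse1.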

How the data were processed

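The authors deposited gene-level estimated counts for all 10 libraries. Per the submitters' processing notes the build was mm10 and the tools were DESeq2 1.16.1, R 3.4.1 and Salmon 0.8.2, without their roles. Strand handling and the step from transcripts to genes were not given in the sources used here. Since 0.06% of estimated counts above 0 were whole (within 1e-06), values were rounded. The other deposited table is named FPKM, but its signal matched each rounded count scaled by a constant of the library (100% of values above 0, tolerance 0.01), so a count test on it would repeat the one on counts. It served as an alternative, with limma on log2 of the value plus 1. Its 2 columns without values were left out, and 0 columns with values belonged to no sample here.

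Symbols and positions came from GENCODE M21 (GRCm38, the assembly of mm10), which named 47224 of 47729 genes. Groups came from the sample titles. The low-count filter was filterByExpr (minimum count 10, minimum total 15), and edgeR 4.0.16 in R 4.3.3 gave TMM factors and the quasi-likelihood fit and test, with no covariate. Each SE was taken as the size of the log2 fold change over the root of its F. Differences within litters and medians per library used log2 CPM with a prior count of 2. No gene list was given a test of its own. The fit was run on simulated counts in which 200 genes changed, while 35.2% of genes tested were called in these data. That run therefore does not check the scaling when many genes change. All 38 genes were named whatever their test, and for other lists up to 4 called genes with the smallest adjusted p. Members and lists were chosen with earlier results of these data known.

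The biological coefficient of variation was 16.4%. Chi-square per degree of freedom lay between 15.89 and 44.61 for pairs within a group, far above sampling noise, and no library was a duplicate. Replicate numbers pair the samples because the labels give same-numbered samples the same litter (numbers 1 and 2 are both litter A), while their deviations from the group means correlated weakly, from -0.0245 to 0.200 over all genes tested. Alternatives tried were DESeq2 1.42.0 and its size factors, library size scaling, no filter, limma 3.58.1, litter or replicate number as a block, somite stage, controls without Cre, and leaving out libraries or litters. A count of 3, taken as the floor, was worth 0.057 to 0.090 CPM, which covers counting error only.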

Additional observations from a re-analysis of the deposited data

Results flagged for a closer look

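In 5 of the 76 groups of 5 values (38 genes in each of the 2 groups of embryos), 1 library stood apart from the other 4, with a gap of more than 0.71 of the group's range. By chance about 1 group in 20 would show this. Birc5 reached 130.8 CPM in knockout 4, where the other 4 knockouts had 123.7 to 124 CPM. Cenpa reached 170.6 CPM in knockout 2, where the other 4 knockouts had 156.6 to 160.7 CPM, all of them below the controls. Tpx2 was at 223.7 CPM in knockout 2, where the other 4 knockouts had 270.9 to 285 CPM, and stayed called without knockout 2. Kif20b reached 90.8 CPM in knockout 5, where the other 4 knockouts had 77.2 to 79.6 CPM. Kif23 reached 122.1 CPM in control 1, where the other 4 controls had 112.8 to 114.9 CPM.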

How the results depend on the processing

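Of the 21 genes called lower, 12 kept the direction and the call under all 24 alternatives, among them Ube2c, Ccnb2, Nusap1, Ccnb1, Cdk1, Top2a and Cenpa. Across the 38 genes and 24 alternatives, 846 of 912 values kept direction and call, 25 lost the call, 18 gained one and 23 changed sign. Without litter A, 3 against 3, 13 of the 38 genes were called lower, all of them among the 21, and over all genes 2002 were called higher and 2021 lower. Fewer libraries entered that fit. Leaving out 1 library at a time gave 20 to 24 genes of the 38 called lower and 0 to 1 called higher, and over all genes 3183 to 3600 higher and 3096 to 3428 lower. The 1 called higher was Cdc20, without knockout 5 and also without litter D (1 of 38). Scaling by library size only gave 2 called higher, Cdc20 and Cdca8, and moved the median over all genes to 0.051. With litter or replicate number as a replicate block, 23 and 22 of the 38 genes were called lower, and the block changed no call of the 38 beyond those of Ttk and Prc1. Signs changed only in genes that were not called, and the values are log2 fold changes. Incenp was at 0 without the filter, with somite stage and without knockout 1, at -0.05 against controls without Cre, -0.04 without control 1, -0.02 without control 2, -0.01 without knockout 3 or 4, -0.07 without litter A and -0.06 without the 2 libraries with high Xist (control 1 and knockout 3). Birc5 ran from -0.03 to 0.02 with 1 library left out (0.01 without control 1, 0.02 without control 4), and was at 0.04 with library size only, 0.02 without litter A, 0 without litter C and 0.01 without the high-Xist libraries. Mad2l1 ran from -0.14 to 0.01 with 1 library left out (0.01 without control 1), and was at 0 with library size only, 0.03 against controls without Cre, 0.06 without litter A and 0.03 without the high-Xist libraries. Without litter A, Bub1 was at 0.07 and Hmmr at 0.01. In each case the cause was not tested. The lowest count of any member in any library was 1550, in Cdc25c. How far counting error and the spread between embryos each set the precision was not tested.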
